A study of Mus musculus with 2 samples.

Results

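The p53 pathway was described here through 10 mouse genes: Trp53, which encodes the transcription factor p53, its regulators Mdm2 and Mdm4, and 7 genes whose transcription p53 is known to activate (Cdkn1a, Ccng1, Sesn1, Sesn2, Zmat3, Trp53inp1 and Phlda3). They were taken by gene symbol, and all 10 were found among the 18987 genes of the deposited count table. The data were RNA-seq counts from RAW264.7 cells, a mouse macrophage-like line derived from a tumour induced by Abelson leukaemia virus, which forms osteoclasts when given the cytokine RANKL. A library from cells with Cpeb4 shRNA was compared with a library from cells with control shRNA. Cells of both libraries had been seeded at 7500 cells/cm2 and given 100 ng/ml RANKL after 24 h, and the series title places the collection on day 3. The protein that Cpeb4 encodes belongs to the CPEB family, which binds short U-rich cytoplasmic polyadenylation elements (CPEs) in 3′ UTRs. How many shRNA sequences, cultures or clones were used is not given in these sources. There was 1 library per group, so no difference below has a replicate check or a test, and the counting intervals cover counting error only.

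As background, p53 is held at a low level by Mdm2, a ubiquitin ligase that marks it for degradation, and by Mdm4, a related protein that binds p53 and blocks its activity. When DNA damage or another stress frees p53, it activates genes of cell cycle arrest, repair, metabolism and cell death, among them Mdm2 itself, which closes a feedback loop. The p53 protein is regulated largely through its stability and modification, which counts of mRNA do not measure. Cdkn1a encodes p21, an inhibitor of cyclin-dependent kinases, and p21 is known from mice to take part in the cell cycle exit that accompanies osteoclast formation. In human fibroblasts, the related protein CPEB1 is known to bind p53 mRNA and to act on its poly(A) tail.

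Sequences of 8 of the 10 genes were available as RefSeq promoters of build GRCm38.p6, 11 windows in all, each running from 250 bases before to 50 bases after a transcript start. The 10-base p53 half-site, the unit that p53 binds in tandem, was searched on both strands. It was found in 5 of the 11 windows, each belonging to a different gene, while 6.96% of the 13720 promoter windows of genes in the deposited table held it. The windows of Trp53 and of Cdkn1a, at its upstream start, are shown because both hold the motif while Trp53 had a higher and Cdkn1a a lower level in the Cpeb4 shRNA library. Capitals mark the half-sites that match in full, and near matches were left in lower case.
Trp53, chr11:69580109-69580408, plus strand: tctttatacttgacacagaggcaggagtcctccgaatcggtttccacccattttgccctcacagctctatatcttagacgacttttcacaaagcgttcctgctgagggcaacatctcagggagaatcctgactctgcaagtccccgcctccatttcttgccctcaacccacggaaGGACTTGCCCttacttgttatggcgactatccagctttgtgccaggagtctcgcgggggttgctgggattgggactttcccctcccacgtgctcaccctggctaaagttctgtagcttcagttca
Cdkn1a, chr17:29090729-29091028, plus strand: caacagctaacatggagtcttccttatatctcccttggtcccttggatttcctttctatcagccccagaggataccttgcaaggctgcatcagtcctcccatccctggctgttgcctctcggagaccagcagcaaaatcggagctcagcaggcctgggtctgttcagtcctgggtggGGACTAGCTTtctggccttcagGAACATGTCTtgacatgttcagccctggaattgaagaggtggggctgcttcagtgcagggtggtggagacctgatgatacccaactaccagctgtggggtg
The Trp53 window held 1 half-site, which began 75 bases before the start. The upstream Cdkn1a window held a pair that began 73 and 51 bases before the start, and this was the only one of the 11 windows with a full site (a pair of half-sites with a spacer of at most 13 bases). The 10 bases directly after the second of these half-sites fit the motif at all but their first base, and were not counted. Full sites were in 0.0510% of the promoter windows of genes in the table. The second Cdkn1a window, at the downstream start, held none. The other windows with a match were those of Mdm2, Ccng1 and Sesn1 (the downstream of its starts), and their half-sites were the following.
Mdm2, chr10:117710935-117710944, minus strand: GAACTTGCCT
Ccng1, chr11:40755462-40755471, minus strand: GGGCAAGCCT
Sesn1, chr10:41887266-41887275, plus strand: AAGCTTGTTT
No half-site was matched in the windows of Mdm4, Sesn2 and Phlda3. The CHR element TTTGAA, a motif of promoters bound by the DREAM repressor complex, was in 0 of the 11 windows and in 1779 of the 13720 promoter windows of genes in the table, both strands searched. A match describes letters in these windows and not binding, and p53 sites of such genes can lie in introns or further upstream.

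The total count was 119350322 in the Cpeb4 shRNA library and 79399680 in the control library. Counts were scaled with TMM and given as CPM, and the 12086 genes that averaged 1 CPM or more over both libraries were kept. Because the filter is on the mean, a gene below 1 CPM in 1 library could pass through the other. Of the pathway genes named further below, Cdc25c and Rad51c passed only through the Cpeb4 shRNA library. Plk2 and Ephx1 passed only through the control library. Such genes are also in the list counts. Cpeb4, the targeted gene, had 13491 counts in the Cpeb4 shRNA library and 25270 counts in the control library, a log2 ratio of -1.73. In the Cpeb4 shRNA library, 14.6% of all genes kept were higher by 2-fold or more and 11.8% were lower by 2-fold or more. The median log2 ratio over all genes kept was 0.05. Of genes past 2-fold, 55.4% were higher, a share that was 71.0% with total-count scaling, 79.4% with scaling to a set of 20 reference genes, and 27.7% with a second such set. Those scalings placed the median of all genes at 0.29, 0.46 and -0.36. All 5 macrophage markers and all 6 osteoclast markers were in the table. Osteoclast markers summed to 9061 CPM in the Cpeb4 shRNA library and 45845 CPM in the control library, and macrophage markers to 2557 CPM in the Cpeb4 shRNA library and 4136 CPM in the control library. Csf1r alone held 1790 CPM of the macrophage sum with Cpeb4 shRNA and 2736 CPM with control shRNA. Of macrophage markers 4 passed the filter, with log2 ratios of -1.04 (Cd68), -0.61 (Csf1r), -0.44 (Itgam) and -0.13 (Ptprc). Adgre1, below the filter, was higher, with 101 counts in the Cpeb4 shRNA library and 12 in the control library. Of fibroblast and osteoblast, lymphoid, and granulocyte and mast cell markers, 0 passed the filter, and of 4 dendritic cell markers 1 did. Their summed levels were at most 4.04 CPM in the Cpeb4 shRNA library and 5.12 CPM in the control library. The part of these marker differences in the p53 gene values below was not tested, and in bulk RNA fewer cells of a kind cannot be told apart from less RNA per cell.

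All 10 p53 genes, each annotated as protein-coding, passed the filter. At least 2-fold lower were 5 of them (Cdkn1a, Ccng1, Sesn2, Trp53inp1 and Phlda3), beside the 11.8% of all genes given above, and 1 of them (Trp53) was at least 2-fold higher, beside 14.6% of all genes. The other 4 were within 2-fold. The median log2 ratio was -1.01 over the 10 genes and -1.27 over the 9 without Trp53. At a limit of 4-fold, 3 genes were lower (Cdkn1a, Trp53inp1 and Phlda3), beside 3.52% of all genes, and 0 were higher, beside 4.82%. At a limit of 1.5-fold, 2 genes were higher (Trp53 and Mdm4), beside 26.4% of all genes, and 7 were lower, beside 22.1%.

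**Figure D1:**
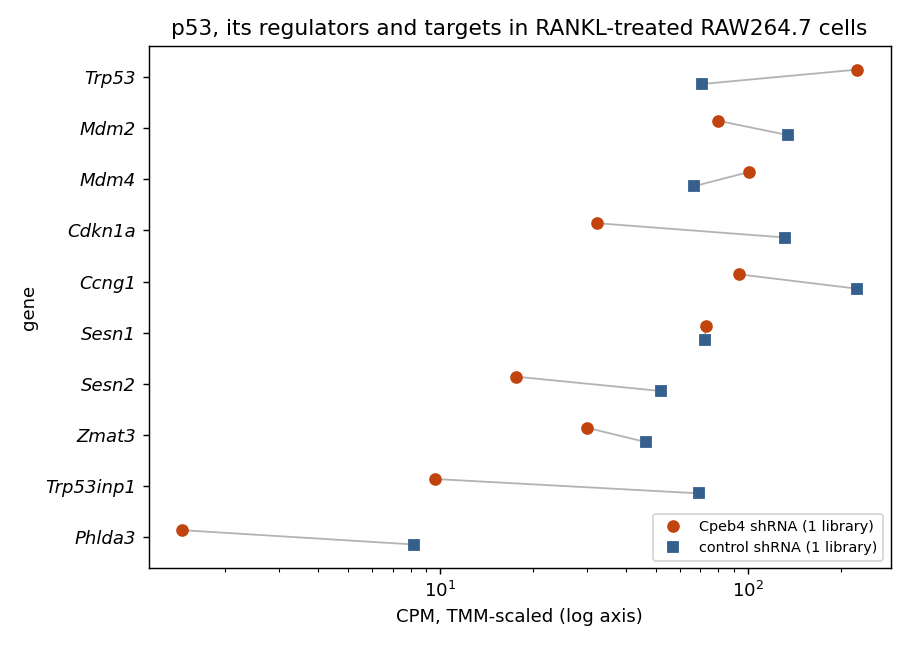
TMM-scaled CPM (log axis) of the 10 genes, with 1 circle for the Cpeb4 shRNA library and 1 square for the control library per gene. Trp53 was at 225 CPM with Cpeb4 shRNA and 70.7 CPM with control shRNA, whereas Cdkn1a was at 32.2 CPM with Cpeb4 shRNA and 132 CPM with control shRNA, and the symbols of Sesn1 lie nearly above each other.

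Trp53 had the highest ratio of the 10 genes. Trp53 (ENSMUSG00000059552; mm10 chromosome 11, 69580359 to 69591873, plus strand) had 29108 counts (225 CPM) with Cpeb4 shRNA and 5180 counts (70.7 CPM) with control shRNA. This was a 3.18-fold higher level, or a log2 ratio of 1.67 with a 95% counting interval of 1.63 to 1.71, and 93.4% of all genes kept had a lower ratio. The processed copy Trp53-ps had 243 counts in the Cpeb4 shRNA library and 78 counts in the control library, so few of the reads had been assigned to it. No other gene annotated in GENCODE M21 overlaps Trp53. Of the other p53 family genes, Trp73 had 4 counts in the Cpeb4 shRNA library and 10 in the control library, below the filter, and Trp63 is not analysed here.

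The inhibitors of p53 differed in opposite directions, each by less than 2-fold. Mdm2 (ENSMUSG00000020184; chromosome 10, 117688875 to 117710758, minus strand), both a p53 target and the ligase that degrades p53, had 10354 counts (80.0 CPM) with Cpeb4 shRNA and 9895 counts (135 CPM) with control shRNA. Its log2 ratio was -0.76 (-0.80 to -0.72), and it was -1.16, past 2-fold, with the second reference-gene set. Mdm4 (ENSMUSG00000054387; chromosome 1, 132959484 to 133030561, minus strand), which binds p53 and blocks its activity, had 13017 counts (101 CPM) with Cpeb4 shRNA and 4866 counts (66.4 CPM) with control shRNA. Its log2 ratio was 0.60 (0.55 to 0.65). The ratio of counts of Mdm2 to Mdm4 was 0.795 in the Cpeb4 shRNA library and 2.03 in the control library, a value that no scaling alters. The ratio of counts of Mdm2 to Trp53 was 0.356 in the Cpeb4 shRNA library and 1.91 in the control library. For Mdm4 to Trp53 it was 0.447 with Cpeb4 shRNA and 0.939 with control shRNA.

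Among targets that act on the cell cycle, Cdkn1a and Ccng1 were lower by more than 2-fold. Cdkn1a (ENSMUSG00000023067; chromosome 17, 29090976 to 29100727, plus strand) had 4170 counts (32.2 CPM) with Cpeb4 shRNA and 9662 counts (132 CPM) with control shRNA. The log2 ratio was -2.03 (-2.09 to -1.98), a 4.09-fold lower level, and 3.35% of all genes kept had a lower ratio. Its exons share 273 bases with AC167363.2, an unclassified annotation on the opposite strand that held 17 counts with Cpeb4 shRNA and 7 with control shRNA. The counts of Cdkn1a stood to those of Trp53 as 0.143 in the Cpeb4 shRNA library and as 1.87 in the control library. Ccng1 (ENSMUSG00000020326; chromosome 11, 40748552 to 40755311, minus strand), which encodes cyclin G1, a partner of protein phosphatase 2A that acts on Mdm2, had 12090 counts (93.4 CPM) with Cpeb4 shRNA and 16501 counts (225 CPM) with control shRNA. The log2 ratio was -1.27 (-1.30 to -1.24), a 2.41-fold lower level, and it was -0.87, within 2-fold, with the first reference-gene set. Zmat3 (ENSMUSG00000027663; chromosome 3, 32334792 to 32366014, minus strand), which encodes an RNA-binding zinc finger protein, had 3880 counts (30.0 CPM) with Cpeb4 shRNA and 3420 counts (46.7 CPM) with control shRNA. Its log2 ratio was -0.64 (-0.71 to -0.57), within 2-fold, and it was -1.05 with the second reference-gene set.

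The genes of the sestrins, stress-induced proteins that restrain the growth kinase complex TORC1, were unlike each other. Sesn1 (ENSMUSG00000038332; chromosome 10, 41809935 to 41908424, plus strand) had 9416 counts (72.8 CPM) with Cpeb4 shRNA and 5291 counts (72.2 CPM) with control shRNA. Its log2 ratio was 0.01 with a counting interval that spans 0 (-0.04 to 0.06), and its sign changed with the scaling, over a range of -0.40 to 0.41. Sesn2 (ENSMUSG00000028893; chromosome 4, 132492032 to 132510501, minus strand) had 2283 counts (17.6 CPM) with Cpeb4 shRNA and 3811 counts (52.0 CPM) with control shRNA. The log2 ratio was -1.56 (-1.64 to -1.49), a 2.95-fold lower level. The ratio of counts of Sesn2 to Sesn1 was 0.242 in the Cpeb4 shRNA library and 0.720 in the control library. Sesn3 did not pass the filter, with 57 counts in the Cpeb4 shRNA library and 8 counts in the control library.

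Targets linked to cell death had the lowest ratios of the 10 genes. Trp53inp1 (ENSMUSG00000028211; chromosome 4, 11156431 to 11174379, plus strand), which encodes a nuclear protein that promotes p53-dependent arrest, death and autophagy, had 1246 counts (9.63 CPM) with Cpeb4 shRNA and 5056 counts (69.0 CPM) with control shRNA. The log2 ratio was -2.84 (-2.93 to -2.75), a 7.17-fold lower level, and 1.54% of all genes kept had a lower ratio. Phlda3 (ENSMUSG00000041801; chromosome 1, 135766119 to 135769136, plus strand), which encodes a pleckstrin-homology protein that competes with the survival kinase AKT for membrane lipids, had 188 counts (1.45 CPM) with Cpeb4 shRNA and 603 counts (8.23 CPM) with control shRNA. The log2 ratio was -2.50 (-2.75 to -2.26), a 5.67-fold lower level. Phlda3 had the fewest counts of the 10 genes and the widest counting interval, and with a pseudocount of 2 CPM its ratio was -1.57.

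**Figure D2:**
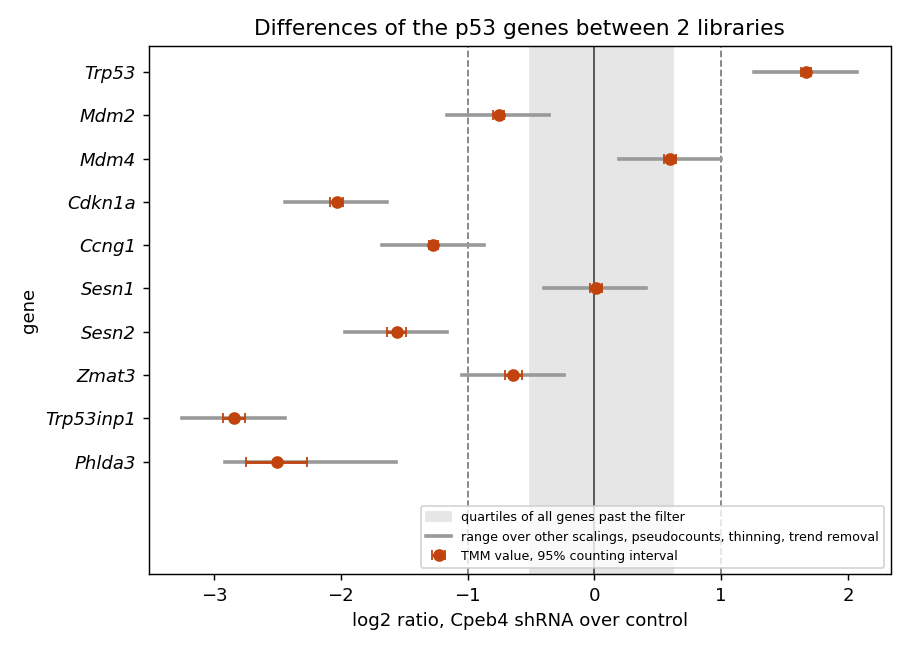
Log2 ratio of Cpeb4 shRNA over control for each gene (points, with 95% counting intervals as capped bars), with its range over other scalings, pseudocounts, thinning and trend removal (grey bars) and the quartiles of all genes (band). Dashed lines mark 2-fold, and Trp53 alone stands to the right of them, while Cdkn1a, Sesn2, Trp53inp1 and Phlda3 stand to the left over their whole ranges.

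Levels per kilobase of annotated exon, which allow genes of different length to be set side by side, placed the genes in a different order in each library. In the Cpeb4 shRNA library Trp53 was first with 55.6 CPM per kilobase, followed by Ccng1 at 26.6, Sesn1 at 18.3 and Mdm2 at 15.7. In the control library Ccng1 was first with 64.2 CPM per kilobase, followed by Cdkn1a at 37.1, Mdm2 at 26.6 and Sesn1 at 18.1, with Trp53 at 17.5 in place 5. Sesn1 and Trp53 were thus close neighbours in the control order. Phlda3 was last in the Cpeb4 shRNA library at 0.932, and Zmat3 was last in the control library at 4.08. Trp53 made up 39.1% of the summed level of the 10 genes in the Cpeb4 shRNA library and 8.61% in the control library. The other 9 genes together summed to 86.6 CPM per kilobase in the Cpeb4 shRNA library and 185 in the control library. These levels use the union of annotated exons, so they understate a gene that uses short transcripts, such as Mdm4 with its 14798 bases of exon.

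**Figure D3:**
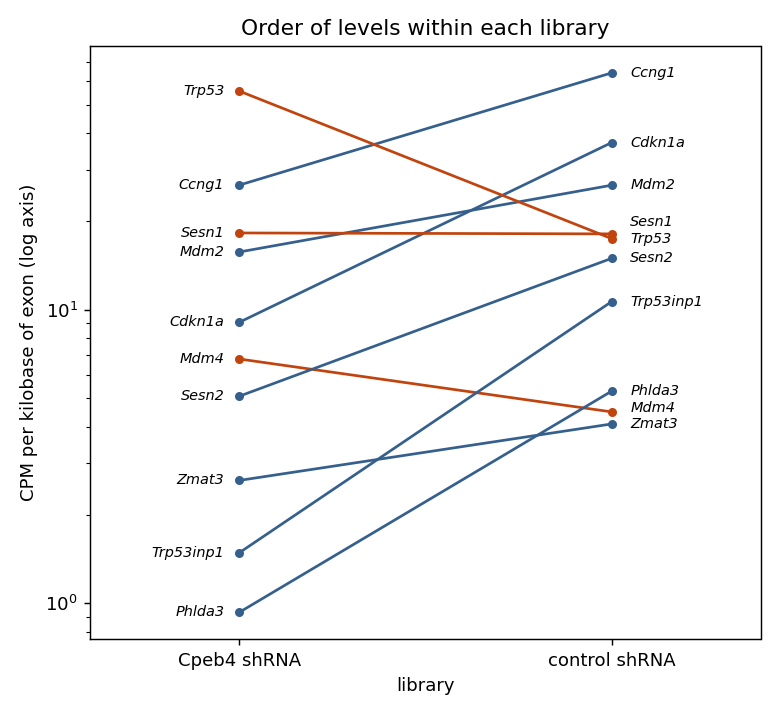
Level of the 10 genes in CPM per kilobase of exon (log axis), with 1 line per gene from the Cpeb4 shRNA library (left) to the control library (right). Red lines mark genes higher in the Cpeb4 shRNA library (Trp53, Mdm4 and Sesn1, the last by 0.01 in log2), and blue lines the 7 that were lower.

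Because Cpeb4 acts through CPEs, the motifs TTTTAT and TTTTAAT were counted on the sense strand of the longest annotated 3′ UTR of each gene's principal transcripts (GENCODE M21). At least 1 CPE was in 60.4% of 10493 UTRs of genes kept, with a median of 1. The sestrins had 0 each in UTRs of 1066 bases (Sesn1) and 1684 bases (Sesn2), where 63.2% and 77.5% of UTRs within 20% of those lengths held at least 1. Trp53inp1 had 13 in 4420 bases, while 677 UTRs of like length had a median of 5 and 4.73% of them had as many or more. Mdm4 had 8 in 5436 bases, Zmat3 had 7 in 6692 and Ccng1 had 6 in 2316. Mdm2 had 3 in 1335 bases, and Trp53 (441 bases), Cdkn1a (1334 bases) and Phlda3 (727 bases) had 1 each. Of UTRs of like length, as many CPEs or more were in 16.1% for Ccng1, 25.1% for Mdm2 and 41.3% for Trp53. The share was 43.1% for Mdm4, 53.2% for Phlda3, 68.2% for Zmat3 and 71.0% for Cdkn1a. Whether the number of CPEs goes with the ratio was not tested. The CPE nearest the 3′ end lay 40 bases from it in Mdm4, 47 in Trp53, 169 in Ccng1, 176 in Trp53inp1 and 184 in Zmat3. It lay 711 bases from the end in Phlda3, 1145 in Mdm2 and 1233 in Cdkn1a. These distances were not set beside those of other genes. The sites of Trp53, Mdm4 and Trp53inp1 are shown with 10 bases on each side. The CPE is in capitals, as the element that a CPEB protein could bind.
Trp53, chromosome 11: ttttacccctTTTTATatatcaattt
Mdm4, chromosome 1: tttaatgcggTTTTATtgtgtttttg
Trp53inp1, chromosome 4: agatggtcagTTTTATacagaatgaa
Binding by Cpeb4 and the length of poly(A) tails were not measured, and the 3′ ends used in these cells are not known from gene counts.

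**Figure D4:**
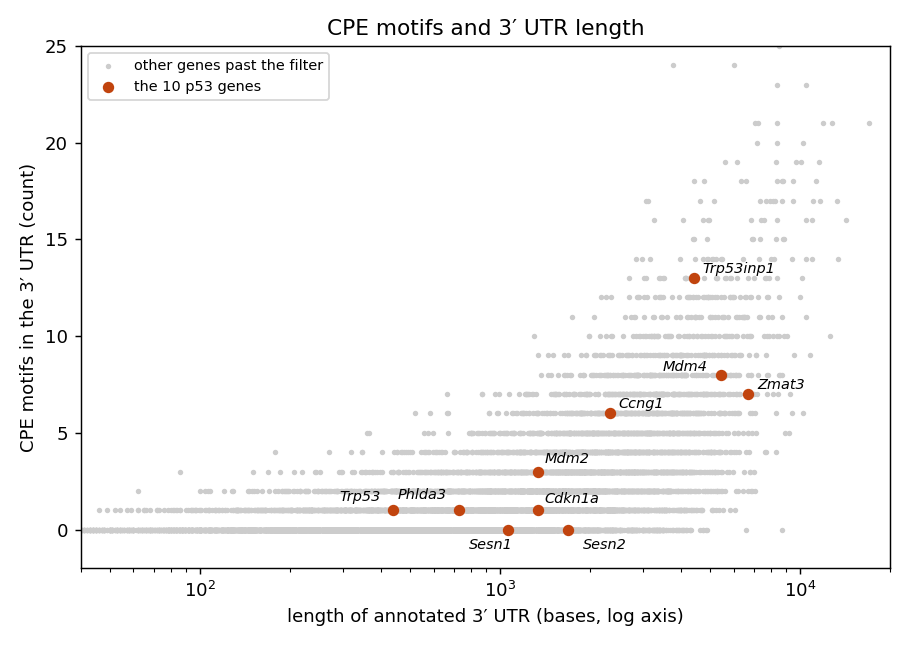
Number of CPE motifs against the length of the annotated 3′ UTR (bases, log axis) for genes that averaged 1 CPM or more (grey) and the 10 p53 genes (red). Trp53inp1, with 13 motifs, stands high for its length, and Sesn1 and Sesn2 lie at 0. A further 94 genes fall outside the axes.

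Other genes of the pathway were described through lists taken from textbook roles. The kinases and cofactors that activate p53 had a median log2 ratio of 0.52 over 22 genes, of which 4 were higher by 2-fold or more, beside 14.6% of all genes, and 1 was lower, beside 11.8%. The count of higher genes was 9 with the first reference-gene set, 2 with the second and 7 with total-count scaling, so it rests on the scaling. The count over all genes moved too. It was 3237 of 12316 genes kept with the first set, 998 of 11884 with the second and 2510 of 12094 with total-count scaling. Chek1, a kinase of the replication checkpoint, was at 3.20 and Npm1, a nucleolar protein that can bind Mdm2, at 1.64. Ppp1r13b, which encodes the p53 partner ASPP1, was at -1.28, and the kinase gene Dyrk2 at -0.25. Cdkn2a, the gene of the Mdm2 inhibitor ARF, is not analysed here. Of 14 further inhibitors and ubiquitin ligases, 1 was higher and 0 were lower past 2-fold, beside the same shares of all genes, and the median was 0.12. The deacetylase gene Sirt1 was at 1.20 and the histone methyltransferase gene Kmt5a at 0.79, while the ligase gene Pja2 was at -0.88 and Ppp1r13l, the gene of the inhibitor iASPP, at -0.72.

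Further p53 targets lay on both sides of 0. In 4 target lists together, without those 10, 52 genes passed the filter, 14 of them 2-fold higher or more, beside 14.6% of all genes, and 5 of them 2-fold lower or more, beside 11.8%. The shares of all genes are also those to set beside the counts of each list that follows, where a count rests on few genes. The median of the 52 genes was 0.13, and that of all genes was 0.05. With the second reference-gene set these medians were -0.27 for the 52 genes and -0.36 for all genes. Arrest targets numbered 9, with 4 higher and 1 lower. Ckap2 (4.23) and Gtse1 (2.67), both of which encode microtubule-associated proteins of dividing cells, were highest, and the kinase genes Plk3 (-1.96) and Plk2 (-0.67) lowest. Death targets numbered 13, with 4 higher and 0 lower. Pidd1 (2.30), whose product activates caspase-2, and Siva1 (2.01) were highest, and Pmaip1, the gene of the BH3-only protein NOXA, (-0.61) and Casp6 (-0.27) lowest. Repair targets numbered 11, with 5 higher and 0 lower, and the DNA ligase gene Lig1 (3.70) and the recombination gene Rad51c (2.92) were highest. The ribonucleotide reductase gene Rrm2b, known as a p53-induced subunit, was lowest (-0.47), and the polymerase gene Polk followed at 0.16.

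Metabolic and autophagy targets were mostly below 0. Without Sesn1 and Sesn2, 17 of 19 had a log2 ratio below 0, beside 5741 of all 12086 genes kept, and the median was -0.45. With the first reference-gene set 10 of the 19 were below 0, beside 3491 of the 12086. Past 2-fold, 4 were lower, beside 11.8% of all genes, and 1 was higher, beside 14.6%. With the sestrins included 5 of 21 were lower. With the second reference-gene set 9 were, beside 2606 of the 11884 genes kept with that set. Ddit4, an inhibitor of TORC1, had 171 counts in the Cpeb4 shRNA library and 311 counts in the control library (-1.68), and the epoxide hydrolase gene Ephx1 had 88 with Cpeb4 shRNA and 154 with control shRNA (-1.63). Dram1, the gene of a lysosomal membrane protein, was highest (1.70), and the ferredoxin reductase gene Fdxr followed at 0.18. Among 15 genes that act with the sestrins on TORC1 and AMPK, 0 were higher and 1 was lower past 2-fold, beside the same shares of all genes. Their median was 0.09. The nucleoporin and GATOR2 gene Seh1l was at 0.75 and the GATOR1 gene Depdc5 at 0.53, while the arginine sensor gene Castor1 was at -1.01 and the Rag GTPase gene Rragc at -0.97.

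Genes that p53 is known to repress through p21 and the DREAM complex were higher, with 23 of 24 at least 2-fold higher, beside 14.6% of all genes, 0 lower and a median of 4.16. The phosphatase gene Cdc25c was highest (5.42), with 1810 counts in the Cpeb4 shRNA library and 24 counts, or 0.328 CPM, in the control library. E2f1 (0.96) and Chek1 (3.20) were lowest. Most of the 24 genes are general genes of dividing cells. Among 11 genes of DREAM subunits, 6 were higher, beside 14.6% of all genes, and 0 were lower, and their median was 1.17. With the second reference-gene set 3 of the 11 were higher, beside 998 of the 11884 genes kept with that set. Rbl1, the gene of the pocket protein p107, was at 3.63 and Tfdp1 at 1.92, while Lin52 and Rbl2, the gene of the pocket protein p130, were at -0.06 and -0.05.

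**Figure D5:**
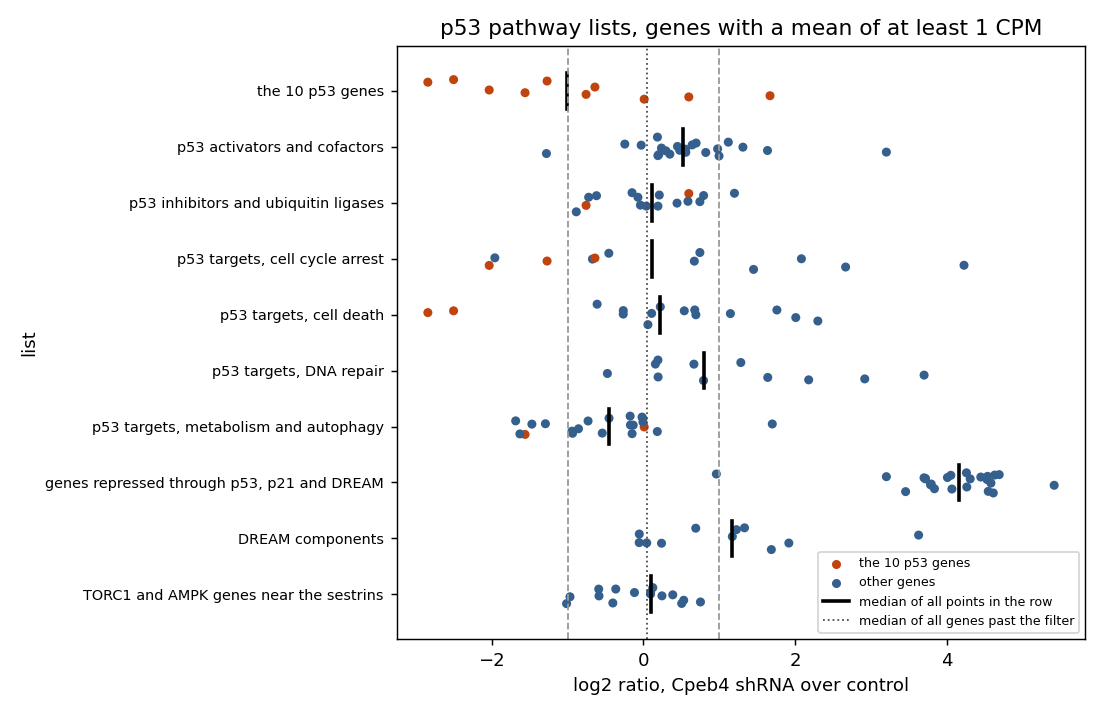
Log2 ratio of Cpeb4 shRNA over control for genes of each pathway list that averaged 1 CPM or more (points), with the list's median (black bar), the median of all genes (dotted line) and 2-fold limits (dashed lines). The 10 p53 genes are red, also where they belong to another list, and the DREAM-repressed genes lie apart with a median of 4.16.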

How the data were processed

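Gene counts from 2 libraries were analysed, 1 per group. The deposited values were whole-number counts per gene, not scaled for depth. Per the submitters' processing notes, reads had been aligned with HISAT2 to mm10, while the counting tool, annotation and strand handling are not given in these sources. Each listed gene had at least 1 count in both libraries. Genes at 4 counts (364 in the Cpeb4 shRNA library and 585 in the control library) outnumbered those at 3 (282 with Cpeb4 shRNA and 444 with control shRNA), so values may be estimates and the intervals approximate. Counts were scaled with TMM in edgeR 4.0.16 (factors 1.08 for Cpeb4 shRNA and 0.922 for control). Intervals are exact 95% Clopper-Pearson bounds of a gene's share of its 2 counts. They cover counting error only, since there was 1 library per group. PCR copies of a read are not separate molecules, so the intervals may be too narrow even for that error. Annotation came from GENCODE M21 (GRCm38, the assembly mm10 names), which held 18935 of 18987 identifiers. Genes were called by size, at least 2-fold. The 10 genes and the lists were chosen with earlier results of these data known. Genes named in the report were the 10, Cpeb4, and the 2 highest and 2 lowest other genes of each list, apart from a gene of the DREAM-repressed list that is not reported here. Sesn3, Trp63, Trp73 and Cdkn2a were added as relatives of these. Also named were a processed copy and an overlapping gene, the macrophage markers, and the genes under the other observations. With 2 libraries no likeness of pattern between genes was computed. Alternatives were other scalings (with DESeq2 1.42.0 size factors among them), pseudocounts, filters, size thresholds and thinning. The computation was tested on simulated counts.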

Additional observations from a re-analysis of the deposited data

How the results depend on the processing

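No paired analysis was possible because there was a single library in each group. Scaling to a second set of 20 reference genes, and correction for GC content and exon length, were chosen after seeing the data. The 2 reference sets share 10 genes and moved each log2 ratio by 0.40 and -0.41. Trp53 was at least 2-fold higher, and Cdkn1a, Sesn2, Trp53inp1 and Phlda3 at least 2-fold lower, under each of the 9 other scalings, pseudocounts, thinning and trend removal (that correction). The median of the 10 genes was -0.78 with total-count scaling, -0.61 and -1.42 with the first and second reference sets, -1.09 after trend removal and -0.76 when a mean of 10 CPM was required, where Phlda3 drops out. Cpeb4 was at -1.49 with total-count scaling, -1.33 and -2.13 with the reference sets and -1.84 after trend removal. Of the 10 genes, 2 were higher at 1.5-fold, and 0 were higher and 3 lower at 4-fold. Counts of all genes higher and lower were 3237 and 842 with the first reference set, 998 and 2606 with the second, 3217 and 2930 without a filter, 1025 and 907 at 10 CPM, 3191 and 2674 at 1.5-fold, and 582 and 426 at 4-fold. List medians, here with the 10 genes included, turned below 0 with the second reference set for inhibitors (-0.29), arrest targets (-0.30), death targets (-0.18) and sestrin partners (-0.31). The arrest median was also below 0 without a filter (-0.46), and the sestrin partners' after trend removal (-0.007). Thresholds and filters set their changes by construction. Shifts with scaling are the same for each gene.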

Other observations

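The genes in this paragraph were chosen after their values were seen. Trp53cor1, the long non-coding RNA gene known as lincRNA-p21 and a p53 target in mouse, had 11 counts in the Cpeb4 shRNA library and 58 counts in the control library, a log2 ratio of -3.22 (95% counting interval -4.30 to -2.28), below the filter on low counts. Eda2r, a receptor gene and p53 target, had 15 counts in the Cpeb4 shRNA library and 38 in the control library. Gadd45a, a growth arrest gene, had 20 counts with Cpeb4 shRNA and 90 with control shRNA, and both also lay below the filter. Other listed p53 targets below the filter lay on both sides of 0. Ptpn14 was at -3.25, while Sesn3 was at 2.01, Gls2 at 1.49, Sfn at 0.34 and Fas at 0.33. The counting intervals of Sfn and Fas span 0. Wrap53, the neighbour of Trp53 on the opposite strand, whose product acts in telomerase assembly, had 1073 counts in the Cpeb4 shRNA library and 295 in the control library, a log2 ratio of 1.04. Among other inhibitor genes of cyclin-dependent kinases, Cdkn1b, the gene of p27 and of the same family as Cdkn1a, was at -0.54. Cdkn2c and Cdkn2d, of the INK4 family, were at 0.79 and 1.26.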
